A study of Mus musculus with 2 samples.

Results

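Non-dividing immature neutrophils are cells that have left the cell cycle and still carry the transcripts of the late granules. Here they were chosen by measured transcripts: at least 5% of a cell's unique molecular identifiers (UMIs, single counted transcripts) came from S100a8 and S100a9 together and at least 0.5% from Camp, Ngp and Ltf together, fewer than 3 UMIs came from Mki67, Top2a and Ube2c, and under 1% came from Col1a1 and Col1a2. Of 17129 cells that passed the quality limits (500 to 140000 UMIs, 200 to 9500 genes, at most 15% mitochondrial UMIs), 2371 met this rule, 1652 of 9036 in the gambogic amide (GA) library and 719 of 8093 in the control library. The values of these 10 genes selected the cells, so they are given below only as a description.

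The cells came from the skulls of C57BL/6 mice (C57BL/6J in the study's methods) of 2 months, in which a calvarial defect of 1.8 mm had been made, and single-cell RNA sequencing was done on bone around the defect 7 days later. The GA group received intraperitoneal gambogic amide, a small molecule, at 1.2 mg/kg in 100 µL of 10% DMSO. The control group received 10% DMSO alone. Injections began 24 h before the injury and went on daily for 1 week according to the sample labels; the study's methods give another dose and duration. Each group is 1 library that pooled 5 mice, so an effect of GA and a difference between libraries cannot be told apart, no test between groups was possible, and every interval below covers counting error only. Cells of the healing defect and of the marrow within the surrounding bone cannot be told apart in these libraries.

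Neutrophils are made from dividing precursors, which fill their granules in a fixed order. Azurophil granule proteins (Mpo, Elane, Prtn3) are transcribed at the promyelocyte stage, specific granule proteins (Ltf, Camp, Ngp, Lcn2) at the myelocyte and metamyelocyte stages, and gelatinase granule proteins (Mmp9) last, after division has ended. Mature cells then gain the receptors and cytokines used outside the marrow, among them Cxcr2, Csf3r and Il1b, while Cxcr4 holds cells in the marrow.

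The marker genes Camp, Ngp and Ltf lie within a short stretch of mouse chromosome 9, and Mmp8 lies elsewhere on it. The sequence directly upstream of each start is shown because the myeloid factors C/EBP epsilon and PU.1 are known to act on granule genes. Capitals mark the letters TTNNGNAA, or TTNCNNAA for the other strand, a core of the sites known for C/EBP factors.

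Camp: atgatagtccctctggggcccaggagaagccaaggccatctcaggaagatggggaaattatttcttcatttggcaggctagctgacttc
Ngp: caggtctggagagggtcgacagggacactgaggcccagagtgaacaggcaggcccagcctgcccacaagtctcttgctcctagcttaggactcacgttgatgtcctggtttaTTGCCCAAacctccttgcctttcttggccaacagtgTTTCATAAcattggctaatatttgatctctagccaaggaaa
Ltf: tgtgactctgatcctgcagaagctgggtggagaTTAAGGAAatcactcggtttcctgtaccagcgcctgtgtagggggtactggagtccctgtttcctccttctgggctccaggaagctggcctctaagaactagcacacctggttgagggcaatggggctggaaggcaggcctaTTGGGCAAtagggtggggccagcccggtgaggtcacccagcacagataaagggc
Mmp8: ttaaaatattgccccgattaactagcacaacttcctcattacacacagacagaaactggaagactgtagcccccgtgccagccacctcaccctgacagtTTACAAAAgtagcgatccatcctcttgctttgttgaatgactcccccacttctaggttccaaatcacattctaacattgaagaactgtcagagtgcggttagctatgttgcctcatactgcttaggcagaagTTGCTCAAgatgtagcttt

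These runs end 1 base before whichever start of the gene lies further upstream, that of GENCODE vM21 or that of RefSeq, are written 5′ to 3′ on the gene's own strand, and come from RefSeq (build GRCm38.p6) at chr9:109849618-109849706 (minus strand), chr9:110419558-110419746, chr9:111019042-111019270 and chr9:7558179-7558428 (plus strand). Ngp, Ltf and Mmp8 each held 2 matches, and Camp held 0 in its 89 bases. Of 32851 promoters, 16.8% held a match in a window of 89 bases, 31.1% in 189, 35.03% in 229 and 36.9% in 250, and a match is a description of these letters only. A core known for PU.1, GAGGAA on either strand, was found 1 time in the windows of Ltf and Mmp8 and 0 times in those of Camp and Ngp, against 9.05% of promoters at 89 bases, 17.9% at 189, 21.3% at 229 and 23.3% at 250. Such cores can overlap each other. Lcn2 is named only.

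Transcripts that the rule did not use set these cells apart from B-lineage and mesenchymal cells. That comparison does not separate immature from other neutrophils, whose stages are compared below. Lcn2, the siderophore-binding protein lipocalin-2 of specific granules, was found in 99.9% of GA cells and 99.9% of control cells, against 24.1% and 4.76% of B-lineage and 63.8% and 23.7% of mesenchymal cells. Mmp8, neutrophil collagenase, was found in 87.7% of GA cells and 86.8% of control cells. With every cell cut down to 2000 randomly drawn UMIs (12 GA and 1 control members were shallower and left out), Mmp8 was in 82.6% and 81.8% of these cells in GA and control, beside 0.485% and 0.164% of B-lineage cells and 1.97% and 0.549% of mesenchymal cells, in which free RNA is the background. For Lcn2 the thinned shares were 100% and 99.6% of immature, 5.98% and 0.658% of B-lineage and 7.40% and 1.30% of mesenchymal cells. The unthinned shares of Mmp8 in B-lineage and mesenchymal cells were 4.68% and 1.48% and 16.1% and 5.56%. B-lineage cells had medians of 7009 and 6273 UMIs and mesenchymal cells 49884.5 and 51035 UMIs, against 10995 and 8238 UMIs in the immature neutrophils. These neutrophils held medians of 2221.5 and 1985 genes and 0.565% and 0.480% mitochondrial UMIs in GA and control.

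Genes of other cell types were low but not absent. The macrophage list summed to 241 CPM in GA and 496 CPM in control, led by Apoe, and 6 GA and 5 control cells carried 3253 of 4642 and 2300 of 3193 of its UMIs. The mesenchymal list summed to 329 CPM in GA and 532 CPM in control, led by Col1a1. The rule left out cells with 1% or more of UMIs from Col1a1 and Col1a2, so this sum is partly limited by the rule. The B-lineage list summed to 61.3 CPM in GA and 63.1 CPM in control, led by Ighm, and the erythroid list to 310.2 CPM in GA and 390.1 CPM in control, led by Hbb-bs. Hemoglobin genes had 5508 of 5938 UMIs in 3 GA cells and 2287 of 2499 in 2 control cells, and were at 22.4 and 33.0 CPM without them. The T and NK list reached 21.7 CPM in GA and 23.5 CPM in control (led by Cd3d, with Cd3e, Klrb1c and Trac at 0 in control), and the endothelial list 11.8 CPM in GA and 12.7 CPM in control, led by Pecam1, with Emcn at 0 in both libraries and Kdr at 0 in control. Platelet genes, led by Pf4, summed to 29.4 CPM in GA and 43.7 CPM in control, and early progenitor genes, led by Npm1, to 37.7 CPM in GA and 62.6 CPM in control. Eosinophil genes summed to 1.72 CPM in GA and 3.26 CPM in control (led by Siglecf, Epx at 0 in control), and basophil and mast cell genes to 1.14 CPM in GA and 1.09 CPM in control (led by Prss34, Fcer1a at 0 in both, Cpa3 and Tpsb2 at 0 in GA and Mcpt8 in control). The monocyte list summed to 10059 CPM in GA and 9765 CPM in control, nearly all of it from Lyz2, which neutrophils also transcribe. Their part in the results below was not tested except where values without the cells that carry them are given. CPM is the number of UMIs of a gene per 1000000 UMIs, after adding up the cells of 1 class in 1 library.

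The 2 libraries shared 23 cell barcodes, 4 of them on GA members and 1 on a control member, and without them the ratio of shares given below was 2.06, and 17 genes were higher and 43 lower in GA by over 2-fold in place of 18 and 41. Cells near the thresholds were few. Camp, Ngp and Ltf made up 0.5% to 0.6% of UMIs in 45 GA and 15 control members just inside the rule, and 0.4% to 0.5% in 63 and 20 cells just outside. Retnlg was at 32437 and 27255 CPM just inside and at 35358 and 31808 CPM just outside, so the cells on either side of this line were close in that gene. Mmp8 was at 3387 and 2692 CPM inside and at 3223 and 2970 CPM outside in GA and control. Cxcr2 differed more in control, with 802 and 411 CPM inside and 739 and 697 CPM outside. The members with 2 UMIs of the dividing genes numbered 27 in GA and 14 in control, with Mmp8 at 767 and 655 CPM, and the cells with 3 UMIs just outside numbered 15 and 4, with 38.4 and 0 CPM. Between 5% and 6% of UMIs from S100a8 and S100a9 was seen in 3 GA and 1 control members, and 4% to 5% in 8 GA and 0 control cells. With 1% or more from Col1a1 and Col1a2, 8 GA cells and 1 control cell stayed outside.

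Immature neutrophils were a larger part of the GA library. They made up 18.3% of GA cells (exact Clopper-Pearson 95% interval 17.5% to 19.1%) and 8.88% of control cells (8.27% to 9.53%), a ratio of 2.06 (95% interval on the log scale 1.90 to 2.23). Within all cells with 5% or more S100a8 and S100a9, the shares were 35.9% (34.5% to 37.3%) and 37.6% (35.4% to 39.8%), a ratio of 0.955 with a counting interval of 0.891 to 1.02 that spans equality. Dividing precursors (3 or more UMIs of Mki67, Top2a and Ube2c, otherwise the same rule) made up 5.28% and 2.87% of all cells, and mature neutrophils (Camp, Ngp and Ltf under 0.5%) 27.1% and 11.8%. There were 3.46 immature cells per dividing cell in GA and 3.10 in control, and 1.48 and 1.33 mature cells per immature cell. The whole S100a8- and S100a9-high compartment was thus larger in the GA library, 50.9% against 23.6% of cells, while the immature share inside it was close in both. These are shares, so more neutrophils and fewer other cells in the GA library cannot be told apart.

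**Figure D1:**
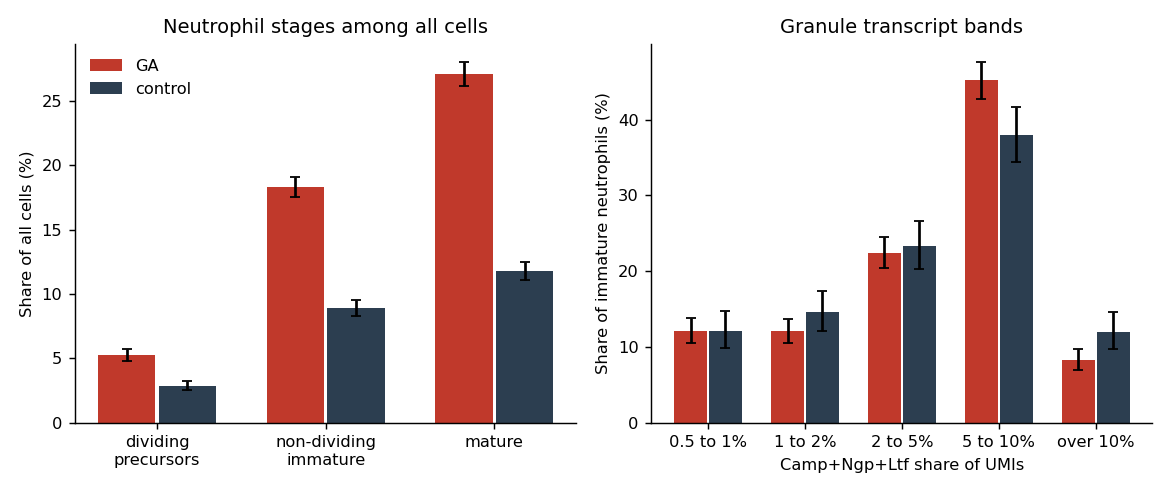
Left, share of all cells (%) for 3 neutrophil stages, and right, share of the immature neutrophils (%) in 5 bands of the Camp, Ngp and Ltf part of UMIs, with GA in red and control in dark blue and bars for exact 95% counting intervals. Immature neutrophils were 18.3% of GA and 8.88% of control cells, and the 5 to 10% band was the largest in both libraries.

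The cells covered a wide range of granule transcripts. Camp, Ngp and Ltf together reached 14.3% of UMIs in GA, with a median of 5.48%, and 14.1% in control, with a median of 5.00%. By bands of this share, the 5 to 10% band held 746 GA cells (45.2%) and 273 control cells (38.0%). The band over 10% held 137 (8.29%, interval 7.01% to 9.73%) and 86 (12.0%, 9.68% to 14.6%), and the 3 bands below 5% held 200, 199 and 370 GA cells and 87, 105 and 168 control cells. Depth moved with the band, from a median of 7699 UMIs in the lowest to 15445 UMIs in the highest in GA and from 5811 to 11566 UMIs in control, and its part in the gene levels was not tested.

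Genes outside the rule followed this order in 2 directions. Chil3 (a chitinase-like protein), measured across the 5 bands from low to high, was at 129.5, 256, 838, 3625 and 5631 CPM in GA and at 62.5, 259.7, 967, 4088 and 6464 CPM in control. Cebpe, which encodes the factor C/EBP epsilon required for specific granules, went from 43.6 to 249 CPM in GA and from 67.9 to 262 CPM in control. Lcn2 went from 7149 to 19297 CPM and from 4467 to 16695 CPM, and Orm1, an acute-phase glycoprotein, from 2.53 to 130.1 CPM and from 0 to 264 CPM. Each of these 4 genes was highest in the band over 10% in both libraries. Of 12 specific granule genes, 5 were higher in every next band in both libraries, against 1.26% of the 8792 genes with 50 or more UMIs, and 3 of those 5 are the genes of the rule, whose order the bands fix. Over a total without the UMIs of the genes of the rule, 6 of 12 were, against 2.74%. Camp, Ngp and Ltf are again among them, and the bands fix their order here too.

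Mmp8 ran against the other markers. Its level across the bands was 3466, 3676, 3434, 1919.8 and 657 CPM in GA and 3315, 3425, 3507, 2259 and 546 CPM in control, so it was high and level in the 3 lower bands and lowest in the band over 10%. Mmp9, gelatinase B, had the same shape, with 2759, 2941, 2678, 1759.7 and 879 CPM in GA and 2164, 2298, 2264, 1543 and 656 CPM in control. Retnlg, a resistin-like secreted protein, was at 30192, 26006, 18225, 7650.2 and 3692 CPM and at 30702, 30347, 21016, 6944 and 2769.9 CPM, and it was lower in every next band in both libraries. The granule genes take up more of the total in the higher bands, so Mmp8 was also computed over UMIs without the genes of the rule. The ratio of its lowest to its highest band was then 4.08 in GA and 4.58 in control, against 5.27 and 6.07 before. Over that total, Retnlg was at 40233 and 41235 CPM in the 2 lowest control bands, so it no longer fell in every band.

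Genes of the mature state were likewise highest in the low bands. Cxcr2, the receptor for neutrophil-recruiting chemokines, was at 732, 682, 471, 214 and 86.3 CPM in GA and at 663, 513, 424, 172 and 62.2 CPM in control. Csf3r, the G-CSF receptor, went from 701 to 139.7 CPM and from 700.5 to 143 CPM, and Il1b from 1307 to 38.1 CPM and from 1301 to 51.7 CPM. Cxcr4 went the same way, from 128 to 34.8 CPM and from 147 to 48.8 CPM. Of 15 genes of the mature neutrophil list, 8 were lower in every next band in both libraries, against 4.7% of the 8792 genes, and 0 were higher. Over a total without the genes of the rule, 7 of 15 were lower, against 3.16%. Lbr, the lamin B receptor of the nuclear envelope, went from 377 to 165 CPM and from 327 to 150.2 CPM, and Padi4, the histone-citrullinating enzyme, from 396 to 237 CPM and from 372 to 181 CPM.

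**Figure D2:**
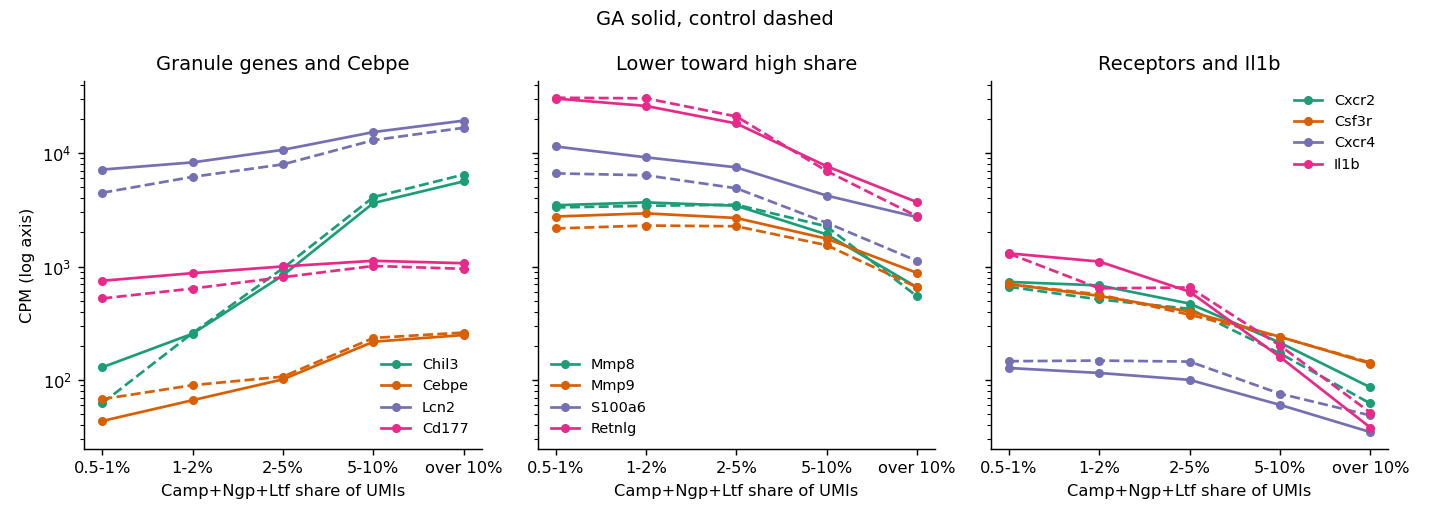
CPM (log axis) of 12 genes across the 5 bands of the Camp, Ngp and Ltf share of UMIs, with GA as solid and control as dashed lines. Chil3 was higher in each next band, while Mmp8 stayed between 3315 and 3676 CPM in the 3 lower bands and ended at 657 CPM in GA and 546 CPM in control.

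Summed by stage, the immature cells held the highest level of Mmp8. Mmp8 was at 13.6 and 1.31 CPM in promyelocyte-stage cells (Elane, Mpo and Prtn3 at 1% or more and S100a8 and S100a9 under 5% of UMIs, 176 GA and 60 control cells), 52.9 and 33.6 CPM in dividing precursors, 2379.8 and 2468 CPM in immature cells and 1545 and 1395 CPM in mature cells of GA and control. On the log2 scale it was higher than in dividing precursors by 5.49 in GA and 6.20 in control, the first of 5196 genes ranked by the smaller of the 2 differences. The stages were themselves chosen by measured transcripts, so these are descriptions. Mature cells with 0.4% to 0.5% of UMIs from Camp, Ngp and Ltf held Mmp8 at 3223 CPM in GA and 2970 CPM in control. Those levels are above the ones summed over all immature cells, so high Mmp8 lies on both sides of the line. Of 5196 genes compared with dividing precursors, 14.2% were higher by over 2-fold in both libraries and 20.6% lower, and of 4422 compared with mature cells, 6.47% were higher and 12.9% lower.

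The next genes in that ranking were Cstdc4 (a stefin-type cysteine protease inhibitor), Nt5e (CD73, which makes adenosine), Arhgap24, Retnlg, Bst1 (CD157), Asprv1, Chil5, Tarm1 and Gpr27. Cstdc4 was at 3.63 and 2.95 CPM in dividing and 149.9 and 145 CPM in immature cells. Nt5e went from 9.15 and 7.71 CPM to 205 and 306 CPM and Retnlg from 651 and 497 CPM to 12922 and 13993 CPM. Cstdc4, Nt5e, Arhgap24, Retnlg, Bst1, Asprv1 and Tarm1 were higher still in mature cells in both libraries, whereas Chil5, with 52.1 and 41.9 CPM in immature and 16.0 and 4.34 CPM in mature cells, and Gpr27, with 49.4 and 47.7 CPM and 23.0 and 16.0 CPM, were lower there. Those 2 genes and Mmp8 were therefore highest in immature cells.

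Cell cycle genes outside the rule were lower than in dividing cells. Hist1h1b, a linker histone made in S phase, was at 539 and 434 CPM in dividing and 1.30 and 0.466 CPM in immature cells. The 8 S phase and 9 G2 and M phase genes with 50 or more UMIs, of 16 listed in each, were all lower than in dividing cells by over 2-fold in both libraries, which the choice of non-dividing cells fixes. Some were still abundant: Hmgb2, a chromatin protein, was at 955 and 869 CPM in immature and 1068 and 838 CPM in mature cells, and H2afz, a histone variant gene, at 837 and 991 CPM and 258 and 253 CPM, over 2-fold higher than in mature cells in both libraries. The genes lowest against dividing cells were Hist1h2ab, Hist1h1b, Cdca2, Fbxo5, Plk1, Ube2c, Depdc1a, Kif11, Pclaf and Top2a, of which Ube2c and Top2a belong to the rule. Of 14 nuclear genes of oxidative phosphorylation, 7 were also lower by over 2-fold in both libraries, against 19.4% of all 8792 genes with 50 or more UMIs, and 0 higher, against 12.8%.

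Azurophil and gelatinase granule genes differed between immature and dividing cells in opposite directions. Of 8 azurophil granule genes, 7 were lower in immature than in dividing cells by over 2-fold in both libraries, against 19.4% of the 8792 genes; Elane, neutrophil elastase, went from 7592 and 11525 CPM in promyelocyte-stage cells to 2035 and 2180.4 CPM in dividing and 24.0 and 219 CPM in immature cells. Of 12 specific granule genes, Mmp8 and Olfm4 were higher than in dividing cells by over 2-fold in both libraries, against 12.8% of the 8792 genes. Chil3 and Fcnb were lower by the same rule, against 19.4%. With 2 of 12 genes in each direction, the specific granule group was close to these shares. Of the same 12, 9 were higher than in mature cells by over 2-fold in both libraries, against 8.46% of the 8792 genes, but Camp, Ngp and Ltf are among them and the rule fixes their order. Camp, the cathelicidin precursor, was at 39452 and 51140.3 CPM in dividing, 22919 and 25928 CPM in immature and 96.4 and 153 CPM in mature cells. Ltf, lactoferrin, was at 5864 and 5558 CPM, 9601 and 8721 CPM and 34.8 and 22.1 CPM, and Ngp, neutrophilic granule protein, at 27815 and 29732 CPM, 27792 and 26791 CPM and 670.1 and 571 CPM; the lower level in mature cells is set by the rule. All 7 gelatinase granule genes were higher than in dividing cells by over 2-fold in both libraries, against 12.8% of all 8792 genes with 50 or more UMIs, and Mmp9 went from 162 and 60.7 CPM to 2042 and 1691 CPM and stayed at 2047 and 1748 CPM in mature cells.

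Cybb, the catalytic subunit of the phagocyte NADPH oxidase, was higher than in mature cells, at 1982 and 2166 CPM against 268 and 347 CPM, while Cyba and Ncf1 differed by under 2-fold. Genes of the mature list were between the stages: 11 of 15 were higher than in dividing cells and 12 of 15 lower than in mature cells by over 2-fold in both libraries, against 12.8% and 9.26% of the 8792 genes. Cxcr2 was at 35.7 and 21.0 CPM in dividing, 338 and 289 CPM in immature and 1052 and 961 CPM in mature cells, and Il1b at 47.7 and 95.1 CPM, 418 and 418 CPM and 5689.9 and 4942 CPM. Of 12 cytokine and chemokine genes, 9 were lower than in mature cells by over 2-fold in both libraries, against the same 9.26%. Among 16 transcription factors of granulopoiesis, Cebpe, Gfi1 and Myb were higher than in mature cells by over 2-fold in both libraries, against 8.46% of the 8792 genes. Cebpb, Junb and Rara were lower by the same rule, against 9.26%. Cebpe was at 431 and 429 CPM, 169 and 181 CPM and 17.1 and 31.1 CPM in dividing, immature and mature cells, and Cebpb at 568 and 632 CPM, 976 and 956 CPM and 3002 and 2929 CPM. Spi1, which encodes PU.1, differed by under 2-fold between the stages, with 348 and 345 CPM, 409 and 399.9 CPM and 607 and 557 CPM.

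**Figure D3:**
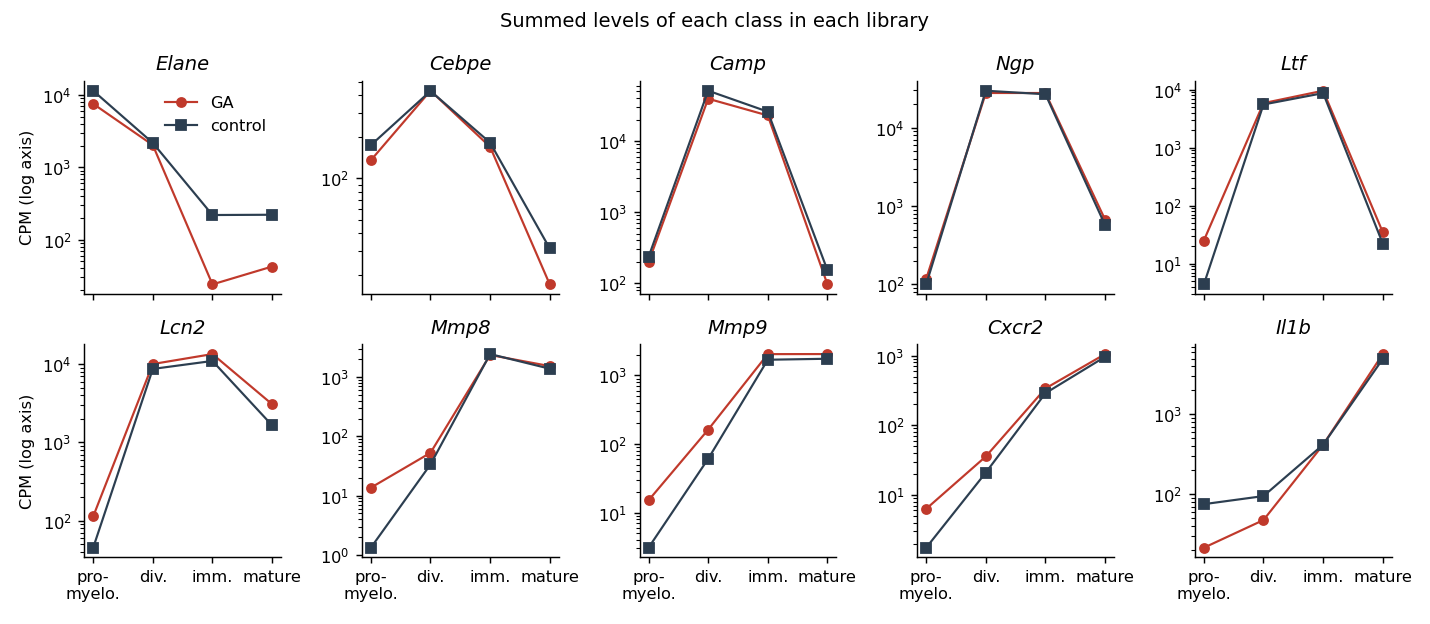
Summed level (CPM, log axes that differ between panels) of 10 genes in promyelocyte-stage, dividing, non-dividing immature and mature cells, with GA as circles and control as squares, 1 library each. Elane was highest in promyelocyte-stage cells, Mmp8 in immature cells at 2379.8 and 2468 CPM, and Cxcr2 and Il1b in mature cells.

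Against mature cells, the highest genes after Ltf and Camp were Orm1, Ldhc, Ngp, Chil3, Lmo1, Zmpste24, Krt81 and F730016J06Rik. Ldhc, a lactate dehydrogenase subunit best known from testis, was at 84.2 and 110.3 CPM in immature, 85.9 and 113 CPM in dividing and 1.85 and 2.05 CPM in mature cells. Zmpste24, the protease that processes prelamin A, was at 172 and 192 CPM, 129 and 146 CPM and 7.61 and 4.34 CPM. Krt81, a hair keratin gene, was at 73.9 and 89.9 CPM against 3.84 and 4.57 CPM in mature cells, with 1421 and 579 UMIs. The lowest against mature cells were 5430425K12Rik, Gm47719, Sirpb1c, Il13ra1, Ifitm1, Pla2g7, Tspan13, H2-Q10, Cass4 and Sirpb1b; Pla2g7, which degrades platelet-activating factor, was at 22.0 and 16.6 CPM and at 348 and 311 CPM in mature cells. Sirpb1b and Sirpb1c are near-identical copies between which reads can be split.

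Between GA and control, most genes of the immature cells were close. Among 6017 genes with 200 or more UMIs over both libraries, 18 (0.299%) were higher in GA by over 2-fold and 41 (0.681%) lower, and log2 ratios of CPM had a 10th percentile of -0.47 and a 90th percentile of 0.15. The median over genes was -0.15, with 1551 genes higher and 4466 lower in GA. S100a8 and S100a9 take up a larger part of the GA total, at 149746 and 125444 CPM for S100a8 and 163177 and 146080 CPM for S100a9. How far this accounts for the median over genes was not tested, and ratios can be read against that median.

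The markers differed little. Ltf was at 9601 CPM in GA and 8721 CPM in control, a log2 ratio of 0.14 (counting interval 0.13 to 0.15), Camp at 22919 CPM in GA and 25928 CPM in control, -0.18 (counting interval -0.19 to -0.17), and Ngp at 27792 CPM in GA and 26791 CPM in control, 0.053 (counting interval 0.045 to 0.061). Lcn2 was at 13476 CPM in GA and 11001 CPM in control, a log2 ratio of 0.29 (counting interval 0.28 to 0.30). Mmp8 was at 2379.8 CPM in GA and 2468 CPM in control, with -0.053 (counting interval -0.079 to -0.026). All 5 markers were within 2-fold. Camp, Ngp and Ltf are genes of the rule, which set the same lower limit on their sum in both libraries. Their ratios are therefore a description only, while the rule did not use Lcn2 and Mmp8. The ratio of Mmp8 became 0.037 over a total without the genes of the rule and 0.099 with the all-gene median subtracted. The spread between mice is unknown, so none of these differences can be set against replicate error.

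A small group of genes was higher in GA across many cells. Ifitm1, an interferon-inducible membrane protein, was at 177 CPM in GA and 24.2 CPM in control, a log2 ratio of 2.87 (counting interval 2.64 to 3.11), and was found in 32.2% of GA cells and 10.4% of control cells. Thinned to 2000 UMIs per cell, these shares were 15.2% and 3.34%, beside 2.91% and 1.15% in B-lineage and 5.23% and 4.54% in mesenchymal cells, so the control share lay between those of the 2 background classes. The unthinned shares there were 11.1% and 4.60% in B-lineage and 39.4% and 26.8% in mesenchymal cells. Across the 5 granule bands it was at 698, 403, 226, 66.5 and 21.9 CPM in GA and 105, 39.8, 25.5, 11.7 and 0.957 CPM in control, higher in GA in every band. Wfdc17, a small protein with a whey acidic protein domain, was at 96.0 CPM in GA and 21.0 CPM in control, with 2.19 (counting interval 1.94 to 2.46), and in 21.5% of GA cells and 6.95% of control cells. The thinned shares of Wfdc17 were 7.87% and 2.23%, beside 2.58% and 3.12% in B-lineage cells, so in control it was not above its share in those cells. In control, 5 cells held 83 of 135 Wfdc17 UMIs, and in GA 387 of 1846. Both genes were higher in mature cells, at 2982 and 424 CPM for Ifitm1 and 2938 and 151 CPM for Wfdc17, and how far mature cells or their free RNA add to the level in immature cells was not tested.

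Of the Wfdc and Ifitm list, 6 of 6 genes with 50 or more UMIs (Wfdc18 had fewer) were higher in GA and 2 of 6 by over 2-fold, against 0.66% of all 8792 genes with 50 or more UMIs. The list median was 0.66 beside -0.17 over those 8792 genes. Ifitm1 and Wfdc17, named above among the genes highest in GA, belong to the list, which was chosen with earlier results of these data known. These counts and the median are therefore a description only. Wfdc21 was at 6077 CPM in GA and 4794 CPM in control, Ifitm2 at 651 CPM in GA and 377 CPM in control, Ifitm3 at 1079 CPM in GA and 747 CPM in control and Ifitm6 at 3130.5 CPM in GA and 2156 CPM in control. Ifitm genes resemble one another, and reads may be split between them. Of 12 type I interferon response genes, 1 was higher and 11 lower, with a median of -0.26, near that of all genes, most of which were also lower. Isg15 was at 32.1 CPM in GA and 32.0 CPM in control. S100a6, a calcium-binding protein, was at 5771 CPM in GA and 3555 CPM in control, with 0.70 (counting interval 0.68 to 0.72).

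Cmah, which makes the sialic acid Neu5Gc, differed in a large part of the cells. It was at 174 CPM in GA and 61.2 CPM in control, a log2 ratio of 1.50 (counting interval 1.35 to 1.66), and was found in 60.5% of GA cells and 25.3% of control cells, or 27.2% and 9.89% after thinning, beside 19.2% and 20.9% of B-lineage and 4.93% and 3.54% of mesenchymal cells. The 5 cells with most Cmah UMIs held 99 of 3338 UMIs in GA and 53 of 394 in control. Across the bands it was at 181, 231, 214, 166 and 79.1 CPM in GA and 55.4, 84.8, 76.4, 56.1 and 41.1 CPM in control. Cmah was higher in GA in mature cells too (log2 ratio 1.45, 136 and 49.8 CPM) and in dividing cells (1.32, 28.6 and 11.5 CPM), but not in B-lineage cells, at 70.8 and 92.0 CPM. Gm11342, at 14.1 CPM in GA and 6.21 CPM in control, lies on the opposite strand within Cmah (chr13:24327404-24477377, build GRCm38), and its UMIs were 272 and 40.

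The other genes highest in GA had lower levels or smaller ratios. Ggt1, the gamma-glutamyltransferase that acts on glutathione and leukotriene C4, was at 14.1 CPM in GA and 4.35 CPM in control, with 1.70 (counting interval 1.14 to 2.32), from 272 and 28 UMIs. Upp1, uridine phosphorylase, was at 53.8 CPM in GA and 21.1 CPM in control, with 1.35 (counting interval 1.09 to 1.62), and in 32.4% of GA cells and 12.0% of control cells, or 10.4% and 3.76% after thinning, beside 0% and 0.164% of B-lineage and 0.394% and 0.0998% of mesenchymal cells. Asprv1, an aspartic protease known from skin, was at 96.0 CPM in GA and 34.5 CPM in control, with 1.48 (counting interval 1.28 to 1.68). Prok2, the secreted peptide prokineticin 2 (Bv8), was at 44.6 CPM in GA and 20.7 CPM in control, with 1.11 (counting interval 0.84 to 1.38), and Cd38, an NAD-consuming surface enzyme, at 11.1 CPM in GA and 3.57 CPM in control, with 1.63 (counting interval 1.01 to 2.32) from 213 and 23 UMIs. Cdc25b, a cell cycle phosphatase, had a log2 ratio of 1.51, Plscr2 1.37, the immediate early gene Egr1 1.23 and Atg4a 1.09. Depth in control was low for Cdc25b, with 24 UMIs, and for Plscr2, with 27.

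**Figure D4:**
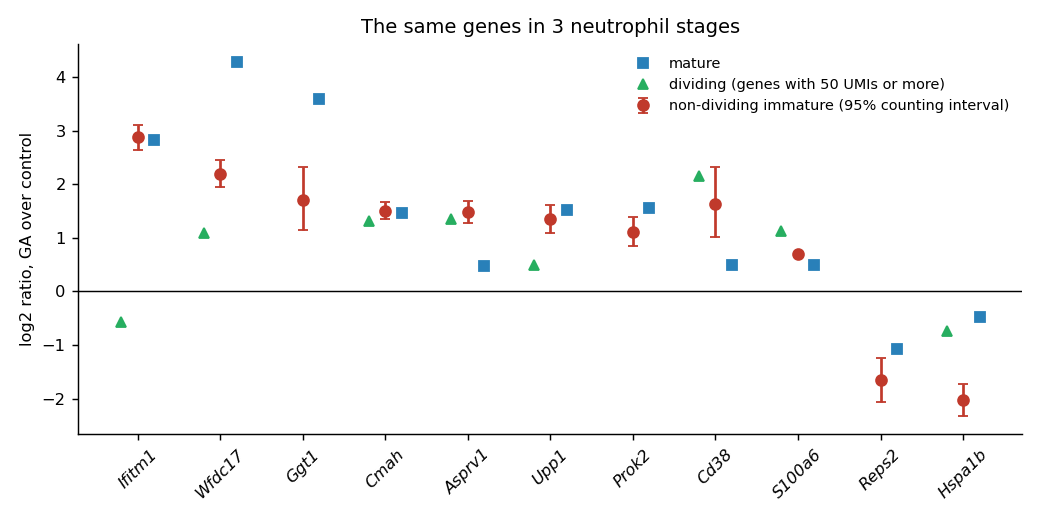
Log2 ratio of GA over control for 11 genes in non-dividing immature cells (circles, bars for 95% counting intervals), mature cells (squares) and dividing cells (triangles, genes with 50 or more UMIs there), 1 library per group. Cmah was between 1.32 and 1.50 in the 3 stages, while Wfdc17 was 2.19 in immature and 4.28 in mature cells.

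Of the 15 highest genes, 13 of the 14 with 50 or more UMIs in mature cells were also higher in GA there, against 31.8% of the 5968 genes with 200 or more UMIs in immature and 50 or more in mature cells. In dividing cells 9 of 13 were, against 44.9% of 5954 genes by the same minimums, from the same 2 libraries. Of the 15 lowest genes, 14 of 15 were also lower in GA in mature cells and 8 of 14 in dividing cells. In both stages, by the shares above, most genes were not higher in GA. Among the 15 highest genes, the exceptions to a spread over many cells were Ccl5 and H2-Aa. For Ccl5, a chemokine of T and NK cells among others, 5 GA cells held 790 of 808 UMIs and control held 3 UMIs. For H2-Aa, a class II antigen presentation gene, 5 GA cells held 145 of 199 UMIs, and without the 5 richest cells of each library the log2 ratio was -0.15 in place of 1.20.

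**Figure D5:**
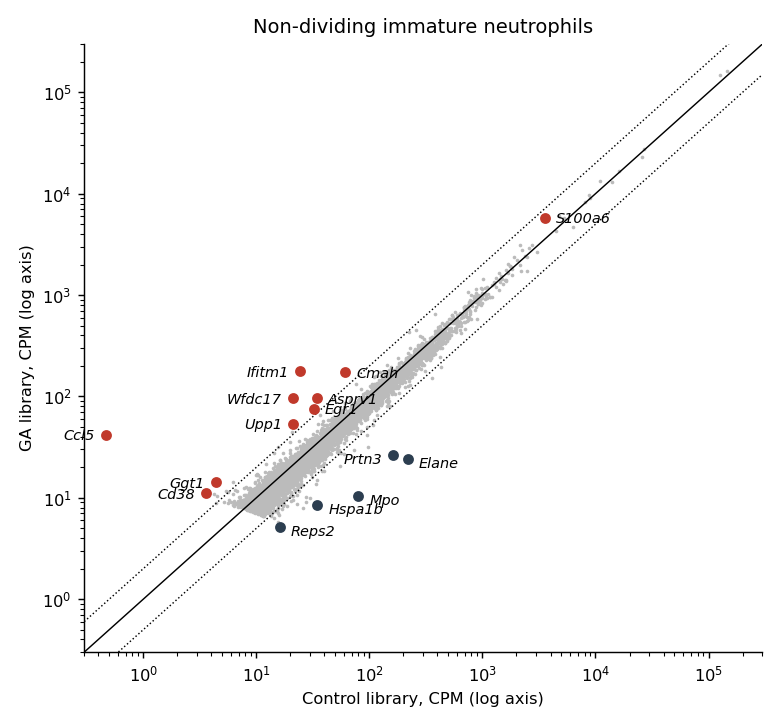
Level of each gene in the immature neutrophils (CPM, log axes), GA on the vertical and control on the horizontal axis, for the genes with 200 or more UMIs, with equality as a solid and 2-fold as dotted lines. Ifitm1 lay at 177 against 24.2 CPM and Elane at 24.0 against 219 CPM.

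Most of the genes lowest in GA had the larger part of their control UMIs in a few cells, and Maml3, Reps2 and Hspa1b did not. Elane was at 24.0 CPM in GA and 219 CPM in control, a log2 ratio of -3.19 (counting interval -3.35 to -3.04), but 5 control cells held 1406 of 1409 UMIs and 5 GA cells 390 of 461. Mpo (myeloperoxidase, log2 ratio -2.93), Prtn3 (proteinase 3, -2.62), Ctsg (cathepsin G, -1.94) and Ms4a3 (-1.59) also had most of their control UMIs in 5 cells, with 507 of 514, 1039 of 1048, 213 of 219 and 144 of 193. Without the 5 richest cells of each library the ratios of Elane, Mpo, Prtn3 and Ctsg turned to 2.97, 2.04, 1.96 and 1.75, and that of Ms4a3 was -0.17. The 4 control cells and the 1 GA cell in which azurophil granule genes reached 1% of UMIs held 3160 of 3190 and 986 of 1342 UMIs of those genes. Without them, the level of these genes was 18.5 CPM in GA and 4.73 CPM in control, the opposite order. A UMI of Elane was seen in 4.60% of GA cells and 1.11% of control cells, in 5.33% and 1.15% of B-lineage cells and in 17.5% and 6.79% of mesenchymal cells, or, thinned, in 1.04% and 0.696% of immature, 2.26% and 0% of B-lineage and 0.690% and 0.249% of mesenchymal cells. The azurophil list had 1 gene higher and 7 lower, with a median of -1.77, and 5 of 8 were lower by over 2-fold against 2.43% of the genes with 50 or more UMIs.

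Other genes among the lowest also had most of their control UMIs in 5 cells. F13a1 (coagulation factor XIII) had a log2 ratio of -1.45 with 158 of 178 control UMIs in 5 cells, Ctss (cathepsin S) -1.32 with 368 of 470, Prdx1 (a peroxiredoxin) -1.61 with 460 of 626, Pdpn (podoplanin) -1.61 with 137 of 177, Ms4a7 -1.40 with 85 of 99 and Hmox1 (heme oxygenase) -1.42 with 227 of 353. With predicted doublets removed, the log2 ratio was 2.00 for F13a1, 0.79 for Ctss and 1.16 for Ms4a7, the other direction, and 0.0046 for Prdx1, near equality. Without the 5 richest cells of each library all 6 stayed lower. The ratios were then -0.088 for F13a1, -0.24 for Ctss, -0.37 for Prdx1, -0.34 for Pdpn, -0.34 for Hmox1 and -1.32 for Ms4a7. Ms4a7 was at -1.53 without cells that carried genes of another type. Maml3, a coactivator of Notch signalling, and Reps2, an endocytosis adaptor, were less concentrated. Maml3 was at 7.90 CPM in GA and 25.9 CPM in control, with -1.71 (counting interval -2.04 to -1.39) and 63 of 167 control UMIs in 5 cells, and Reps2 at 5.15 CPM in GA and 16.2 CPM in control, with -1.65 (counting interval -2.06 to -1.24) and 42 of 104. The heat shock genes Hspa1b and Hspa1a were at 8.48 CPM in GA and 34.6 CPM in control and at 8.74 CPM in GA and 22.7 CPM in control, with log2 ratios of -2.03 and -1.38, and share near-identical sequence. In control, 5 cells held 111 of 223 Hspa1b and 90 of 146 Hspa1a UMIs, and without the 5 richest cells of each library the log2 ratios were -1.64 and -0.73.

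Other functional groups had medians between -0.61 and 0.16, beside -0.17 over all 8792 genes with 50 or more UMIs. Of those genes, 0.66% were higher and 2.43% lower in GA by over 2-fold, so a list with 0 past 2-fold was close to them. Among the 6017 genes with 200 or more UMIs, 1551 were higher and 4466 lower, and the counts below stand beside these. The lists take genes with 50 or more UMIs, so the minimums differ. Specific granule genes were 6 higher and 6 lower, with a median of -0.0083, and 0 of 12 passed 2-fold. Gelatinase granule genes were 5 higher and 2 lower (median 0.12), secretory vesicle and surface genes 6 and 1 (0.069), NADPH oxidase genes 5 and 1 (0.078), and mature neutrophil genes 7 and 8 (-0.00047), each with 0 past 2-fold. Transcription factors of granulopoiesis were 8 and 8 (-0.017), chemoattractant receptors 7 and 3 (0.067, with Ccr2 lower by over 2-fold and 46 of its 50 control UMIs in 5 cells), marrow retention and exit genes 5 and 3 (0.067), glycolysis and hypoxia genes 10 and 7 (0.051) and oxidative phosphorylation genes 6 and 8 (-0.019). Cytokine and chemokine genes were 2 higher and 10 lower (-0.08, with Cxcl3 lower by over 2-fold and 52 of its 67 control UMIs in 5 cells), genes of Toll-like receptors and NF-kB 2 and 10 (-0.18), survival and death genes 3 and 9 (-0.23), S100 genes 5 and 3 (0.16), protease inhibitors 4 and 3 (0.029), nuclear envelope and chromatin genes 4 and 3 (0.081), and leukotriene and prostaglandin genes 4 and 4 (0.012), the last with Ggt1 past 2-fold. S phase genes were 0 and 8 (-0.61, Mcm3 and Dut lower by over 2-fold, with 26 of 31 and 35 of 41 control UMIs in 5 cells) and G2 and M phase genes 2 and 7 (-0.31, Stmn1 lower by over 2-fold, with 60 of 101 control UMIs in 5 cells). The S phase median was -0.050 without cells that carried genes of another type and 0.0014 after thinning.

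Among receptors that guide neutrophils in and out of the marrow, Cxcr4 was lower in GA and Cxcr2 higher, both by under 2-fold. Cxcr2 was at 338 CPM in GA and 289 CPM in control, a log2 ratio of 0.23 (counting interval 0.15 to 0.30), and Csf3r at 329 CPM in GA and 330.4 CPM in control, with -0.0074 (counting interval -0.079 to 0.064). Cxcr4 was at 76.4 CPM in GA and 100.5 CPM in control, with -0.40 (counting interval -0.53 to -0.26). Olfm4, a specific granule protein present in a subset of neutrophils, was at 129 CPM in GA and 229 CPM in control.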

How the data were processed

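The authors deposited 2 matrices of counts (UMIs per gene and barcode, not normalized), 182949385 UMIs for GA over 9322 barcodes and 214993030 for control over 8718. The file headers name Cell Ranger 7.0.1, and the submitters' notes name mm10. The study's methods state another version. Barcodes within 500 to 140000 UMIs, 200 to 9500 genes and 15% mitochondrial UMIs were kept, the stages were set by thresholds, and UMIs were summed per stage and library and divided by the stage's total (CPM). With 1 library per group no test was made: PyDESeq2, used by the study, was not run. Shares have exact Clopper-Pearson 95% intervals, ratios of shares approximate 95% intervals on the log scale, and ratios of summed counts exact conditional binomial 95% intervals. The depth, 19231054 UMIs in GA and 6436962 in control members, sets the precision.

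Scripts used Python 3.11.15, NumPy 2.4.6, SciPy 1.17.1, pandas 2.3.3, scanpy 1.11.5 and Matplotlib 3.10.9, and were tested on simulated data. Doublets were kept in the main values. Scrublet marked 0 GA and 26 control cells (0.321%), too few to trust, so an alternative removed the 653 and 524 cells of highest score, 113 and 24 of them members. Named genes are those of the lists, the 10 most abundant, the 15 highest and 15 lowest between groups (200 UMIs or more), the 10 highest and 10 lowest against dividing and mature cells. Some genes of the lists are not reported here. Members, lists and rules were chosen with earlier results of these data known. Lists need 50 UMIs per gene. BC100530 and Mx1 are not listed among the features. Positions are from GENCODE vM21 and promoters from RefSeq GRCm38.p6. Alternatives moved each threshold, the scaling, the weights, the depth and the minimum count. Leaving out cells with genes of another type and a total without the genes of the rule for the bands were added after seeing the data.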

Additional observations from a re-analysis of the deposited data

Results flagged for a closer look

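The genes H2-Aa, Ifitm1, Ctsg, F13a1 and Prdx1 had GA over control ratios that ran one way in immature neutrophils and the other way in another neutrophil stage. The differences between stages were not tested, since each group has 1 library. H2-Aa had a log2 ratio of 1.20 in immature cells, -1.06 in mature cells and -5.71 in dividing cells, with 145 of its 199 GA UMIs in 5 immature cells. Ifitm1 was at 2.87 in immature and -0.58 in dividing cells, where its level was 12.98 CPM in GA and 19.4 CPM in control, near that of mesenchymal cells (22.3 and 20.9 CPM). Ctsg was at -1.94 in immature and 0.60 in dividing cells, F13a1 at -1.45 and 1.37, and Prdx1 at -1.61 and 0.59. In immature control cells, 5 cells held 213 of 219 Ctsg UMIs, 158 of 178 F13a1 UMIs and 460 of 626 Prdx1 UMIs.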

How the results depend on the processing

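Among the 15 highest genes, 12 stayed over 2-fold higher in GA under all 17 alternatives run. Among the 15 lowest, Hspa1b, Maml3 and Reps2 stayed over 2-fold lower under all 17. With 0 UMIs of dividing genes, cells of another type left out, or the 5 cells richest in the gene left out, the log2 ratio turned to 2.91, 2.63 and 2.97 for Elane, 1.90, 1.86 and 2.04 for Mpo, 1.77, 1.82 and 1.96 for Prtn3, and 1.97, 1.62 and 1.75 for Ctsg; with 0 UMIs of dividing genes Ms4a3 was at 0.21. With predicted doublets removed, Ctss was at 0.79, F13a1 2.00, Ms4a7 1.16 and Prdx1 0.0046. H2-Aa was at -2.20 with dividing genes under 0.05% and -0.15 without 5 cells. The azurophil median of -1.77 became 1.46 and 1.26 in the first 2 settings, -2.72 without predicted doublets, -1.30 with Camp, Ngp and Ltf at 1% or more, -0.50 with dividing genes under 0.05%, -0.84 with equal weights and -0.84 when thinned. The S phase median of -0.61 became -0.075, -0.050 and, thinned, 0.0014.

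Relative to the median of all genes, or to a total without the genes of the rule, the list medians were 0.82 and 0.75 for Wfdc and Ifitm, 0.27 and 0.21 for gelatinase, 0.15 and 0.089 for mature, and 0.14 and 0.082 for specific granule genes. Specific granule genes were at 0.043 with dividing genes under 0.05%, and mature genes at -0.082 without doublets, -0.083 with equal weights and -0.069 thinned. The 18 genes higher in GA became 56 thinned, 58 at 50 UMIs and 6 at 1000 UMIs. The 41 lower became 24 without doublets, 24 with S100a8 and S100a9 at 10%, 65 with dividing genes under 0.05%, 22 without cells of another type, 23 relative to the median, 22 with equal weights, 103 thinned, 214 at 50 UMIs and 8 at 1000 UMIs. Over the alternatives the ratio of shares of all cells lay between 2.00 and 2.08, and that within S100a8- and S100a9-high cells between 0.897 and 1.01, on both sides of equality. The causes were not tested. Thinning leaves few UMIs per gene, so counts of genes past 2-fold then include sampling error. No paired analysis was possible because each group has 1 library.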

Other observations

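Of 8 leukotriene and prostaglandin genes, 3 were higher and 2 lower than in mature cells by over 2-fold in both libraries, against 8.46% and 9.26% of 8792 genes, and 3 were higher than in dividing precursors, against 12.8%. Lta4h, which makes leukotriene B4, was at 305 and 337 CPM in immature and 24.3 and 27.4 CPM in mature cells of GA and control, and the leukotriene B4 receptor gene Ltb4r1 at 318 and 268 CPM and 82.8 and 85.2 CPM. Ptgs1 (cyclooxygenase 1) was at 27.1 and 42.7 CPM and 10.3 and 12.1 CPM, whereas Ptgs2 (cyclooxygenase 2) was at 59.1 and 81.6 CPM and 687 and 791 CPM, the opposite order. Of 12 type I interferon response genes, 8 were higher than in dividing precursors by over 2-fold in both libraries, against 12.8%. Ifit2 alone was lower by the same rule, against 19.4% of the 8792 genes. Of the same 12, 5 were lower than in mature cells by over 2-fold in both libraries, against 9.26%. Rsad2 (viperin) was at 1.28 and 4.10 CPM in dividing, 23.6 and 32.0 CPM in immature and 113 and 129 CPM in mature cells. The anti-apoptotic gene Mcl1 was at 576 and 519.5 CPM in immature and 1528 and 1422 CPM in mature cells.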
